A study of Mus musculus with 6 samples.

Results

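The genes described are 10 members of the EGF receptor family and its ligands among the 39179 genes listed in the deposited files: the receptor genes Egfr, Erbb2 and Erbb3, and the ligand genes Areg, Ereg, Hbegf, Tgfa, Egf, Btc and Epgn. They were taken by gene symbol, and each symbol matched a row in every file. Poly(A) RNA had been sequenced from liver tumours of C57BL/6 mice, wild type before injection, in 2 groups of 3 samples: Myc/NrasG12V and Myc/Akt1. Both groups carried Myc, delivered with either NrasG12V, a constitutively active mutant of the small GTPase Nras, or the kinase gene Akt1. The cargo reached hepatocytes on transposable elements by hydrodynamic injection, a fast high-volume injection into the circulation. The labels did not give the promoters of the constructs, the age or sex of the mice, or whether the tumours of a group came from separate mice, so p-values bore on the spread between these samples, which may be technical in part.

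EGF family ligands are made as membrane-anchored precursors that proteases cut free, and the freed peptide binds a receptor of the ErbB family on the same cell or a neighbour. Binding brings receptors together in pairs, which switches on their tyrosine kinases and, through adaptor proteins, the RAS-ERK and PI3K-AKT pathways. Egfr binds all of the ligands listed here, Erbb2 has no known ligand of its own and acts as a partner, and Erbb3 has a weak kinase and passes the signal mainly to PI3K. Hepatocytes are known for abundant EGFR, and its ligands take part in liver regeneration.

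Libraries held 17881282 to 21780251 reads in Myc/NrasG12V and 22005319 to 27865094 reads in Myc/Akt1. Values are CPM, the reads of a gene scaled to the same total in every library; 3 reads, the limit that a count of 0 allows, were worth 0.138 to 0.168 CPM in Myc/NrasG12V and 0.108 to 0.136 CPM in Myc/Akt1, for counting error alone. Nras averaged 3.05-fold higher in Myc/NrasG12V and Akt1 4.30-fold higher in Myc/Akt1, as labelled. Hepatocyte markers summed to 115982 to 152800 CPM in Myc/NrasG12V and 43706 to 55543 CPM in Myc/Akt1, so both groups carried the labelled tissue's transcripts. Most of each sum was Alb, at 90716 to 123707 CPM in Myc/NrasG12V and 29894 to 38466 CPM in Myc/Akt1 (limma adjusted p = 0.184). Of the list, Ttr and Apob averaged higher in Myc/Akt1 and the rest higher in Myc/NrasG12V. Over all genes tested, principal component 2 (11.6% of the variance) set Myc/NrasG12V replicate 3 apart from the rest of its group. That library also had the highest level within its group of 8 of the 9 members that passed the filter on low values, all but Egf.

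Most of the family was higher in Myc/NrasG12V. Of the 10 members 7 were called higher there, which were all 3 receptor genes and the ligand genes Ereg, Hbegf, Tgfa and Btc, and 0 were called lower. A call was a limma adjusted p under 0.05 over the 14365 genes that passed the filter, of which 39.5% were called, 10% higher in Myc/NrasG12V and 29.5% lower. For these 7 genes every Myc/NrasG12V library lay above every Myc/Akt1 library, as it did for 14.8% of all genes tested, with 38% the other way round. Areg and Egf were tested and not called, and Epgn was too rare to test. In bulk tumour RNA a change in the number of cells of a type and in RNA per cell cannot be told apart. Leaving out a single library lowered the 7 to 5 (when that library was replicate 3 of Myc/NrasG12V, or replicate 1 or 2 of Myc/Akt1) or 6 (for each of the remaining libraries). The scale mattered for all genes: their median log2 difference was -0.26 on CPM and 0.00 with TMM factors, which correct for a few very abundant genes, and calls split into 1437 higher and 4240 lower on CPM but 2331 higher and 2565 lower with TMM. The member calls numbered 7 on both scales (16.2% of all genes were called higher with TMM), and with DESeq2, where 19.2% of all genes were, 8 through Areg. With TMM the log2 differences were 2.97 for Egfr, 4.11 for Hbegf, 2.74 for Btc and -0.22 for Egf.

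**Figure D1:**
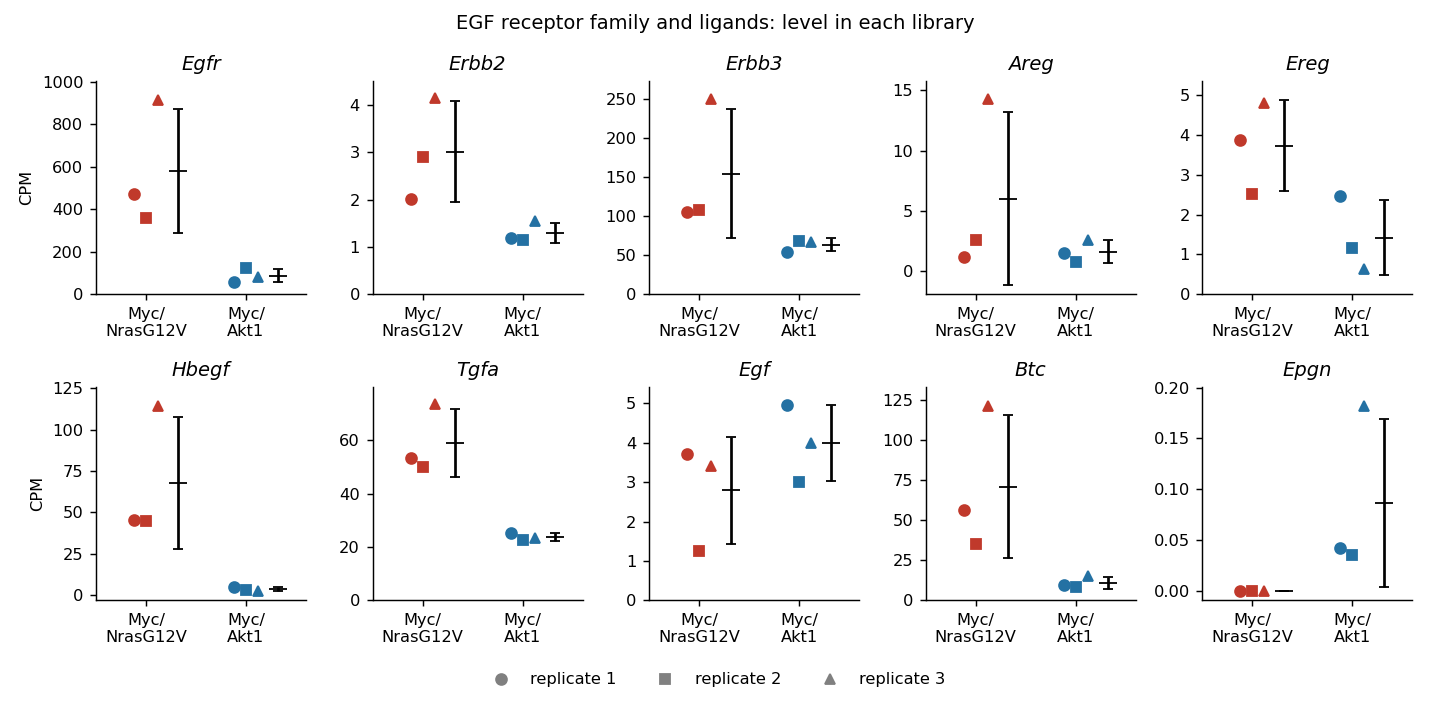
Level of each of the 10 genes in CPM (vertical axis, a scale of its own in each panel) in the 3 Myc/NrasG12V libraries (left) and the 3 Myc/Akt1 libraries (right); symbols mark the replicate number, and the black mark and bar are the group mean ± SD. The groups do not overlap for Egfr, Erbb2, Erbb3, Ereg, Hbegf, Tgfa and Btc, and the triangle of Myc/NrasG12V replicate 3 is the highest point in those 7 panels and in that of Areg.

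Egfr had the largest difference of the 3 receptor genes among the members. Egfr (ENSMUSG00000020122, chromosome 11, 16752203 to 16918158, GRCm38, plus strand) stood at 470.0, 357 and 913 CPM in Myc/NrasG12V replicates 1, 2 and 3, against 59.4, 122 and 81.1 CPM in Myc/Akt1. The lowest Myc/NrasG12V library was well above the highest Myc/Akt1 library, although libraries differed widely within each group. The means were 580.0 ± 294 CPM in Myc/NrasG12V and 87.5 ± 31.7 CPM in Myc/Akt1 (SD, n = 3 each), a 6.63-fold difference, or 4.73-fold without Myc/NrasG12V replicate 3. The log2 difference was 2.66 (SE 0.37, 95% interval 1.82 to 3.50, limma adjusted p = 9.31e-04), which ranked 156th from the top of 14365. It passed the test in all 17 alternative settings run, with adjusted p of 0.00509 at most.

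Erbb3, the receptor that feeds PI3K (ENSMUSG00000018166, chromosome 10, 128567523 to 128589652, minus strand), was also higher in Myc/NrasG12V. It stood at 105, 108 and 250 CPM in Myc/NrasG12V, against 53.6, 68.6 and 66.8 CPM in Myc/Akt1, so Myc/NrasG12V replicate 3 was far above the other libraries and the gap between the rest was narrower. Its mean was 2.45-fold higher in Myc/NrasG12V, with a log2 difference of 1.16 (SE 0.32, limma adjusted p = 0.0201), and 1.69-fold higher without Myc/NrasG12V replicate 3. The call ended without Myc/Akt1 replicate 1 (limma adjusted p = 0.0733). Erbb2, the partner receptor (ENSMUSG00000062312, chromosome 11, 98412470 to 98437716, plus strand), was rare, at 2.01, 2.89 and 4.14 CPM in Myc/NrasG12V and 1.19, 1.15 and 1.55 CPM in Myc/Akt1. These values rested on 42 to 74 reads a library in Myc/NrasG12V and 28 to 34 in Myc/Akt1. The log2 difference was 0.78 (SE 0.24, limma adjusted p = 0.0335), and this call was fragile: the limma adjusted p was 0.0722 without Myc/NrasG12V replicate 2, 0.0602 without Myc/NrasG12V replicate 3, 0.105 without Myc/Akt1 replicate 1 and 0.106 without Myc/Akt1 replicate 2. Erbb2 shares 9 exonic bases with Mien1 on the opposite strand in the annotation.

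Hbegf, which encodes heparin-binding EGF-like growth factor, showed the largest difference of the 9 tested members. Hbegf (ENSMUSG00000024486, chromosome 18, 36504927 to 36515805, minus strand) stood at 45.0, 44.6 and 114 CPM in Myc/NrasG12V, against 4.75, 3.19 and 2.45 CPM in Myc/Akt1. Every Myc/NrasG12V library was many times above the highest Myc/Akt1 library, and the first pair of Myc/NrasG12V libraries was nearly equal. The mean was 19.6-fold higher, 12.9-fold without Myc/NrasG12V replicate 3, and the log2 difference of 3.83 (SE 0.38, 95% interval 2.97 to 4.70, limma adjusted p = 2.11e-04) ranked 57th of 14365. The call held in all 17 alternative settings. The sum of neutrophil markers, given with those of other cell types further on, was also highest in Myc/NrasG12V replicate 3. Of that list Csf3r and Ly6g were highest in replicate 2 of the group. The part of neutrophils in the result was not tested.

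Btc and Tgfa were the other ligand genes of substantial level. Btc, for betacellulin (ENSMUSG00000082361, chromosome 5, 91357261 to 91402994, minus strand), stood at 56.3, 35.2 and 121 CPM in Myc/NrasG12V, against 9.67, 8.22 and 15.2 CPM in Myc/Akt1. The lowest Myc/NrasG12V library was thus well above the highest Myc/Akt1 library. The mean was 6.42-fold higher, or 4.15-fold without Myc/NrasG12V replicate 3, with a log2 difference of 2.44 (SE 0.42, limma adjusted p = 0.00242). Tgfa, for transforming growth factor alpha (ENSMUSG00000029999, chromosome 6, 86195223 to 86275719, plus strand), stood at 53.4, 49.95 and 73.5 CPM in Myc/NrasG12V, against 25.3, 22.6 and 23.4 CPM in Myc/Akt1. Relative to the mean, its libraries lay closest together of the called ligand genes in both groups. The mean was 2.48-fold higher, with a log2 difference of 1.25 (SE 0.19, limma adjusted p = 0.00144). The calls of Btc and Tgfa held in all 17 alternative settings.

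The remaining ligand genes were rare. Ereg, for epiregulin (ENSMUSG00000029377, chromosome 5, 91074622 to 91093646, plus strand), stood at 3.87, 2.53 and 4.81 CPM in Myc/NrasG12V, against 2.46, 1.15 and 0.636 CPM in Myc/Akt1, and the groups nearly touched. Its log2 difference was 1.01 (SE 0.32, limma adjusted p = 0.0341) and its mean 2.64-fold higher, or 2.26-fold without Myc/NrasG12V replicate 3. Leaving out each library gave 2.07-fold to 4.18-fold, the highest without Myc/Akt1 replicate 1. The Ereg call ended without Myc/NrasG12V replicate 1 (limma adjusted p = 0.0826), Myc/NrasG12V replicate 3 (0.0717), Myc/Akt1 replicate 2 (0.102) or Myc/Akt1 replicate 3 (0.106).

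Areg, for amphiregulin (ENSMUSG00000029378, chromosome 5, 91139599 to 91148432, plus strand), stood at 1.19, 2.62 and 14.3 CPM in Myc/NrasG12V, against 1.53, 0.718 and 2.59 CPM in Myc/Akt1. Apart from Myc/NrasG12V replicate 3 the groups overlapped in part. The mean was 3.74-fold higher, or 1.18-fold without that library. The log2 difference was 0.99 (95% interval -0.47 to 2.44, limma adjusted p = 0.251) and 0.17 without it (limma adjusted p = 0.713), and edgeR did not call it on the recovered reads (adjusted p = 0.0874) while DESeq2 did (adjusted p = 0.0176). Egf itself (ENSMUSG00000028017, chromosome 3, 129677565 to 129755316, minus strand) stood at 3.72, 1.24 and 3.41 CPM in Myc/NrasG12V, against 4.96, 3.01 and 3.999 CPM in Myc/Akt1, with overlapping groups. Its log2 difference of -0.45 had a 95% interval from -1.19 to 0.29 (limma adjusted p = 0.299). Epgn, for epigen (ENSMUSG00000035020, chromosome 5, 91027464 to 91035215, plus strand), had 0 reads in all 3 Myc/NrasG12V libraries and 1, 1 and 4 reads in Myc/Akt1. At this depth it lay at or near the detection limit in both groups, and no fold is given.

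**Figure D2:**
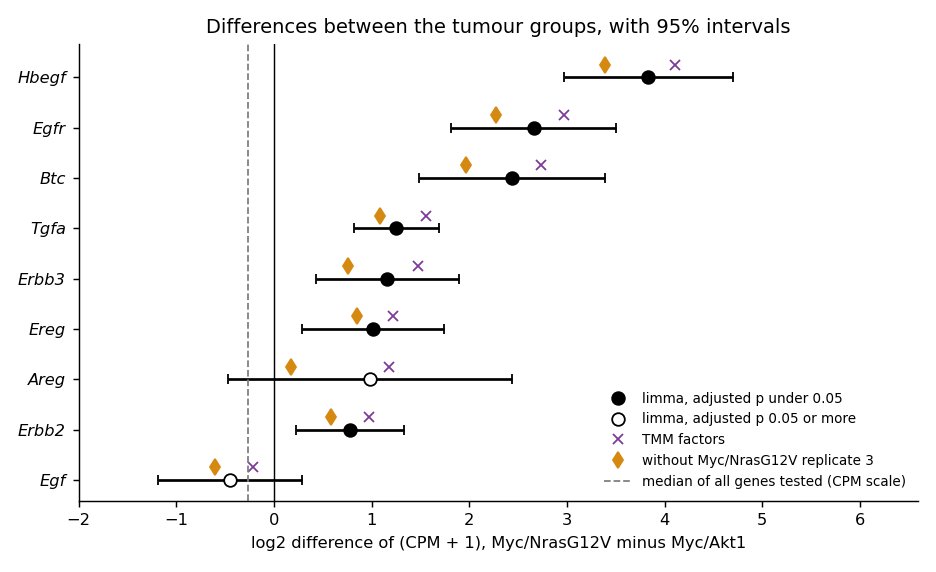
Log2 difference of (CPM + 1), Myc/NrasG12V minus Myc/Akt1 (horizontal axis), of the 9 tested genes with 95% intervals (limma); crosses give the estimates with TMM factors and diamonds those without Myc/NrasG12V replicate 3. Hbegf, Egfr and Btc lie farthest to the right at 3.83, 2.66 and 2.44, Areg falls to 0.17 without that library, and Egf alone lies left of 0; the dashed line is the median of all genes tested, -0.26.

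The make-up of the family also differed. Levels of different genes were set side by side as RPKM, CPM per kilobase of the gene's merged exons. Egfr made up 69.9, 63.1 and 65.6% of the summed RPKM of the 3 receptor genes in Myc/NrasG12V, against 36.5, 48.1 and 38.6% in Myc/Akt1, with no overlap. Erbb3 made up 29.5, 35.8 and 33.8% in Myc/NrasG12V, against 61.9, 50.9 and 59.8% in Myc/Akt1, and Erbb2 averaged 0.802% in Myc/NrasG12V and 1.39% in Myc/Akt1. In RPKM, Egfr stood at 51.2 ± 25.9 and Erbb3 at 25.6 ± 13.8 in Myc/NrasG12V, while in Myc/Akt1 Egfr stood at 7.72 ± 2.80 and Erbb3 at 10.5 ± 1.37 (SD, n = 3 each). The ranges of the pair overlapped within each group. These shares do not depend on how libraries are scaled to each other.

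Among the ligands, the summed RPKM was 32.2, 27.6 and 74.9 in Myc/NrasG12V, against 9.34, 7.12 and 10.2 in Myc/Akt1. Hbegf made up 28.9, 33.4 and 31.5% of that sum in Myc/NrasG12V, against 10.5, 9.28 and 4.96% in Myc/Akt1. Tgfa made up 25.5, 27.9 and 15.1% in Myc/NrasG12V and 41.8, 48.9 and 35.3% in Myc/Akt1. Among the 7 ligand genes summed, the leading transcript in Myc/Akt1 was thus Tgfa in all 3 libraries. In Myc/NrasG12V it was Btc in replicates 1 and 3 and Hbegf in replicate 2. Neuregulin genes were not part of the sum. Btc made up 34.2 ± 5.36% in Myc/NrasG12V and 27.1 ± 5.19% in Myc/Akt1 (SD, n = 3 each), with overlapping ranges. In order of mean RPKM the ligands ran Btc, Hbegf, Tgfa, Areg, Ereg, Egf and Epgn in Myc/NrasG12V, where the ranges of neighbours overlapped down to Ereg. In Myc/Akt1 they ran Tgfa, Btc, Areg, Hbegf, Egf, Ereg and Epgn. Tgfa lay above Btc there without overlap, Hbegf lay above Egf without overlap, and the ranges of Btc, Areg and Hbegf overlapped in turn. With the longest transcript as the length, Hbegf passed Btc in Myc/NrasG12V, at 23.5 against 17.6 RPKM, and the order in Myc/Akt1 was the same, with Hbegf and Egf then overlapping. Reads of Egf, Ereg and Tgfa could include antisense transcripts annotated over their exons, since the strand setting of the counting was not given.

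**Figure D3:**
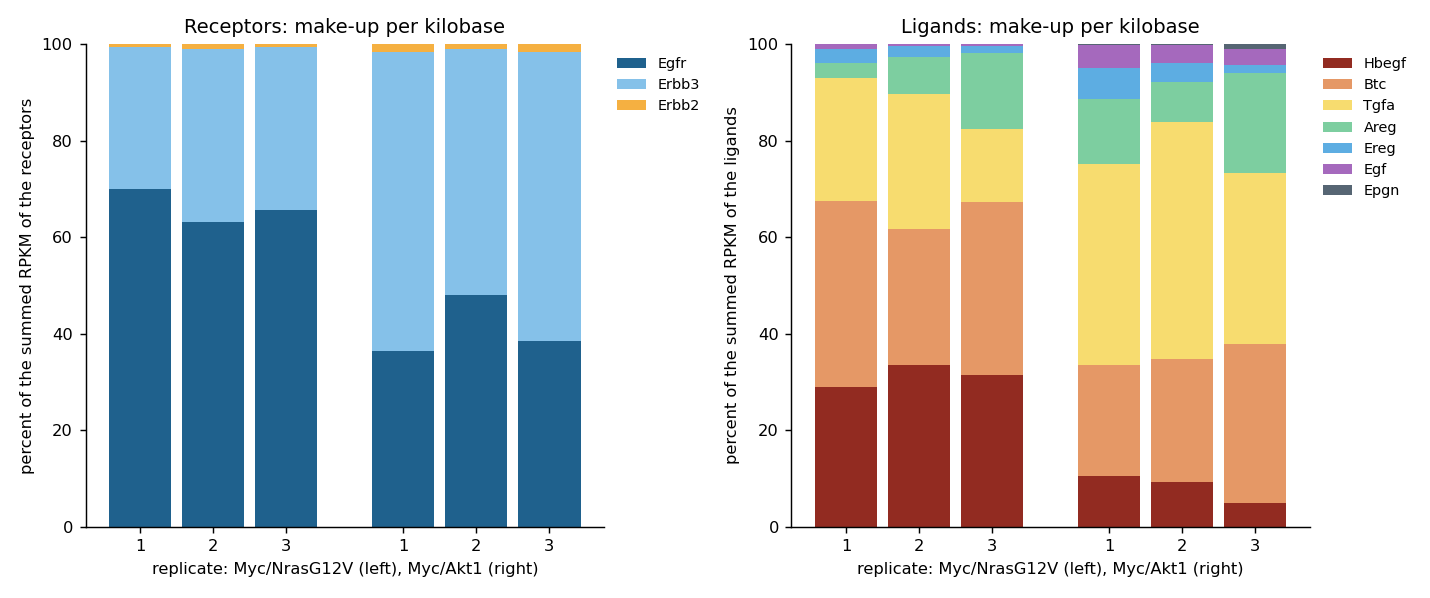
Share of each receptor gene (left panel) and ligand gene (right panel) in the summed RPKM of its kind, in percent (vertical axis), by library, with the Myc/NrasG12V libraries on the left of each panel and the Myc/Akt1 libraries on the right. Egfr holds 63.1 to 69.9% of the receptor sum in Myc/NrasG12V and 36.5 to 48.1% in Myc/Akt1, and Hbegf 28.9 to 33.4% and 4.96 to 10.5% of the ligand sum.

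Promoter windows are shown for 4 members, since they are the DNA next to the start of genes that moved together (Egfr, Btc and Tgfa) and of a neighbour that was not called (Areg). Windows of 300 bases, 250 before to 50 after the gene start, were taken from the RefSeq table (GRCm38.p6) for 7 of the 10 members. They are printed 5′ to 3′ on the strand of the gene, and capitals mark a match to a motif searched on both strands.
Egfr, chr11:16751953-16752252, plus strand: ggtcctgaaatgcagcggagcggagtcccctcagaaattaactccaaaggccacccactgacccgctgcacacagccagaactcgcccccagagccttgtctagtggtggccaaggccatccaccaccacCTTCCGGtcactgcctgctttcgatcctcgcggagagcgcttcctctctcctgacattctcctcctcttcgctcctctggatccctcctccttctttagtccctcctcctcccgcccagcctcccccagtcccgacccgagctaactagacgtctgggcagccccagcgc
Btc, chr5:91402945-91403244, minus strand: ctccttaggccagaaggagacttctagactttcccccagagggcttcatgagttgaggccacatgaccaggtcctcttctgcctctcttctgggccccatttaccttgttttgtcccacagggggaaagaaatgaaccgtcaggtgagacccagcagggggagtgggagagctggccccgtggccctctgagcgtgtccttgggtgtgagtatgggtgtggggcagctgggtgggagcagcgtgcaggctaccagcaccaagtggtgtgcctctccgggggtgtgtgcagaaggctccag
Tgfa, chr6:86194972-86195271, plus strand: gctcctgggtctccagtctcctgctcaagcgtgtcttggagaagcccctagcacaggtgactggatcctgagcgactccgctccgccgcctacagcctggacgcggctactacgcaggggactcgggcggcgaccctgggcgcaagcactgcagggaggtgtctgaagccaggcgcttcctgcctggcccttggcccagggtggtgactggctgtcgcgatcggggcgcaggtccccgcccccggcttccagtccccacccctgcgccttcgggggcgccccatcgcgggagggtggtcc
Areg, chr5:91139349-91139648, plus strand: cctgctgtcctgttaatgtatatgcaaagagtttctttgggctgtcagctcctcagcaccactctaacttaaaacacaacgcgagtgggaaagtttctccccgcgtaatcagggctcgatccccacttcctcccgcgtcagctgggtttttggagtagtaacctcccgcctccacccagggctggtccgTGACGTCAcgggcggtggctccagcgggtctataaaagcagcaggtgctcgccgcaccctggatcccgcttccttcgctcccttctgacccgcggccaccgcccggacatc

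The 4 motifs searched were TGANTCA, bound by AP-1, CCGGAAG, bound by ETS factors, TGACGTCA, the cAMP response element, and CACGTG, the E-box bound by MYC and other factors. They do not overlap one another in these windows. The Egfr window holds CCGGAAG on the reverse strand from position 131 of the window, a motif found in 8.91% of 32544 mouse promoter windows of that length. CCGGAAG is also in 1 of the pair of windows listed for Egf, from position 206, and Egf was not called. The Areg window holds TGACGTCA from position 190, which 1.80% of windows hold. These letters do not occur for any of the 4 motifs in the Btc, Tgfa, Erbb2 and Epgn windows; TGANTCA is in 7.79% and CACGTG in 7.17% of all windows. The base make-up differed, with 62.3% G and C for Egfr, 60.3% for Btc, 70.7% for Tgfa and 59.3% for Areg, against a median of 53% over all windows. Tgfa had 24 CpG pairs, Areg 21, Egfr 15 and Btc 5, against a median of 7. Windows of Erbb3, Ereg and Hbegf were not searched, so the member with the largest difference is not covered. No binding or methylation was measured, so the windows searched are a description of the sequence.

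Areg, Ereg, Epgn and Btc are neighbours on chromosome 5, in a stretch that starts with the albumin family genes Alb and Afp and holds a chemokine cluster. From Alb to Btc (90460897 to 91402994) the files list 20 annotated genes, of which 13 were tested, 7 called higher in Myc/NrasG12V and 1 lower. Of all genes tested, 10% were called higher and 29.5% lower. Differences varied widely within the stretch. Afp, for alpha-fetoprotein, the abundant serum protein of fetal liver, was at 5415 ± 1416 CPM in Myc/NrasG12V and 4.03 ± 1.29 CPM in Myc/Akt1 (SD, n = 3 each), while Mthfd2l, the gene before Epgn, had a log2 difference of -0.31 (limma adjusted p = 0.316). Of the chemokine genes between, Cxcl1, a neutrophil attractant, was 4.52-fold higher, at 94.96 ± 21.7 CPM in Myc/NrasG12V and 20.99 ± 3.19 CPM in Myc/Akt1 (SD, n = 3 each, limma adjusted p = 2.13e-04). Ppbp and Pf4, genes of platelets and their precursors, had log2 differences of 3.20 and 1.49, and Cxcl2 one of 0.68. Cxcl2 was at 1.66 CPM in Myc/NrasG12V and 0.660 CPM in Myc/Akt1, and its call (limma adjusted p = 0.0467) ended without any 1 of the Myc/Akt1 libraries (0.0929, 0.0655 and 0.136) and without Myc/NrasG12V replicate 1 or 2 (0.135 and 0.0962). The gene called lower, 5830473C10Rik, was not called with TMM factors (limma adjusted p = 0.157), without Myc/NrasG12V replicate 2 or 3 (0.0949 and 0.0552) or without Myc/Akt1 replicate 2 or 3 (0.0994 and 0.0893). The count of 7 became 5 without Myc/NrasG12V replicate 1, Myc/Akt1 replicate 2 or Myc/Akt1 replicate 3. It became 8 with edgeR and voom and 9 with DESeq2, with Alb, the serum albumin gene, called in all 3 (adjusted p = 0.00501 with edgeR). Of all genes, 16.6% were called higher with edgeR and 19.2% with DESeq2, and 2341 of 14365 with voom. Among the 17 alternatives Afm passed in 1, without Myc/NrasG12V replicate 3 (limma adjusted p = 0.00441).

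**Figure D4:**
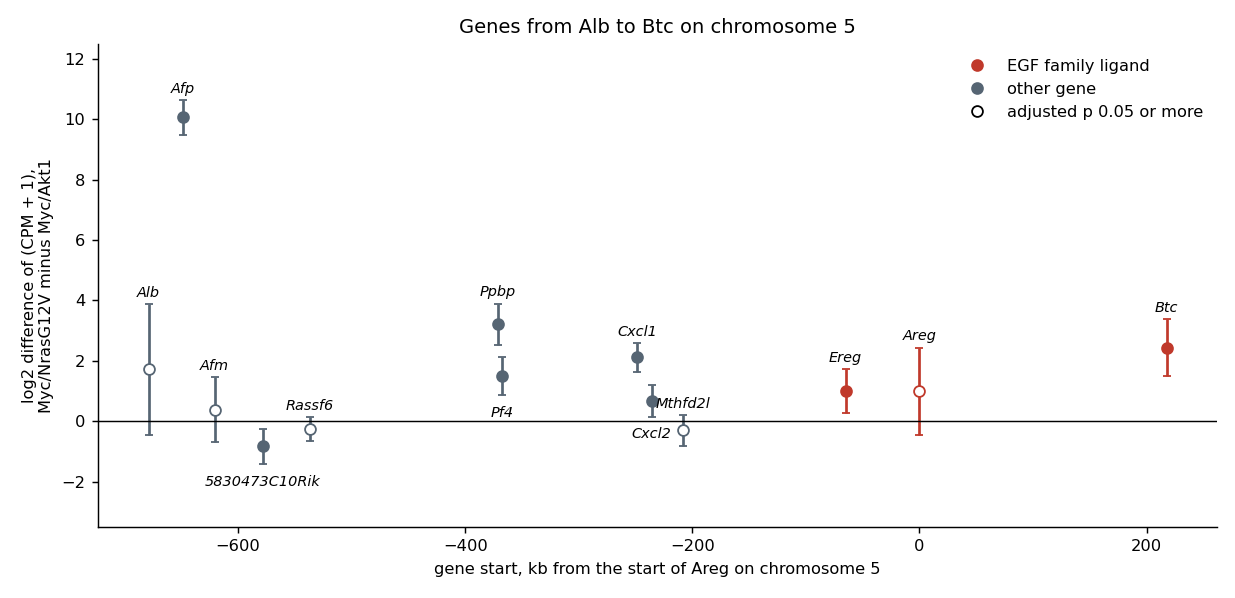
Log2 difference of (CPM + 1), Myc/NrasG12V minus Myc/Akt1, with 95% intervals (vertical axis) of the 13 tested genes from Alb to Btc on chromosome 5, by the distance of the gene start from that of Areg in kb (horizontal axis); open points were not called. Btc at 2.44 and Ereg at 1.01 are called, Areg at 0.99 is not, and Afp is highest at 10.07; Ppbp, Pf4, Cxcl1 and Cxcl2 are neighbours among the tested genes and all called.

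Erbb4 was lower in Myc/NrasG12V, unlike the 3 other receptor genes. Erbb4, the remaining receptor of the family, which binds neuregulins, betacellulin, epiregulin and HB-EGF, stood at 0.573, 0.689 and 0.0559 CPM in Myc/NrasG12V, against 11.7, 9.12 and 11.3 CPM in Myc/Akt1. That is 12, 15 and 1 reads in Myc/NrasG12V, against 275, 254 and 248 reads in Myc/Akt1. Its mean was 24.3-fold higher in Myc/Akt1, with a log2 difference of -3.04 (limma adjusted p = 1.11e-04) that held in all 17 alternative settings. Both neuregulin genes that passed the filter were higher in Myc/NrasG12V, while Nrg2, which did not pass it, was lower there. Nrg4, an ErbB4 ligand best known from brown fat, was at 91.1 ± 1.30 CPM in Myc/NrasG12V and 18.0 ± 4.96 CPM in Myc/Akt1 (SD, n = 3 each, log2 difference 2.31, limma adjusted p = 1.47e-04). Nrg1, a ligand of ErbB3 and ErbB4, was at 11.6, 10.3 and 5.48 CPM in Myc/NrasG12V and 4.84, 2.23 and 2.50 CPM in Myc/Akt1 (log2 difference 1.27, limma adjusted p = 0.0174), and lost its call without Myc/NrasG12V replicate 1 or 2 (0.0604 and 0.0571) or Myc/Akt1 replicate 2 or 3 (0.0697 and 0.0556). Nrg2 had 5 reads over the Myc/NrasG12V group and 108 over the Myc/Akt1 group, without overlap, and did not pass the filter. With no filter on low values, 2 genes of this list were called lower in Myc/NrasG12V, Erbb4 and Nrg2. Nrg3 had 0 reads in all 6 libraries.

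Of 11 tested genes listed for the shedding (cutting free) and trafficking of ligands, 3 were called higher in Myc/NrasG12V and 3 lower. The median log2 difference of the list was 0.31, against -0.26 for all genes tested. The 3 called lower were 27.3% of the list, near the 29.5% of all genes tested, and the 3 called higher the same share, against 10% of all genes tested. Cd9, a tetraspanin that binds the HB-EGF precursor, was 2.95-fold higher, at 180.4 ± 65.5 CPM in Myc/NrasG12V and 61.2 ± 11.8 CPM in Myc/Akt1 (SD, n = 3 each, limma adjusted p = 0.00304). Frmd8 and Rhbdf2, whose products carry and stabilise the sheddase ADAM17, had log2 differences of 1.13 and 0.89 (limma adjusted p = 0.00357 and 0.0148; for Rhbdf2 0.0641 without Myc/Akt1 replicate 1). The 3 called lower, chosen for naming after their values were seen, were the sheddase genes Adam17, Adam10 and Adam12 themselves, with log2 differences of -0.80, -0.68 and -0.75. None of these 3 calls held with TMM factors, and of the 3 there were 0 when replicate 1 of either group was left out and 1 when replicate 2 of either was.

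Downstream of the receptors, 3 of 18 tested adaptor and signalling genes were called lower in Myc/NrasG12V and 0 higher, with a median log2 difference of -0.03. Both shares lay below those of all genes tested, 29.5% lower and 10% higher. Pik3r1, the regulatory subunit of PI3K that docks on ErbB3, was at 21.9 ± 3.78 CPM in Myc/NrasG12V and 144 ± 37.1 CPM in Myc/Akt1 (SD, n = 3 each, log2 difference -2.64, limma adjusted p = 1.30e-04), which held in all 17 alternative settings. Grb2, the adaptor that links receptors to RAS, was at 32.3 ± 0.958 CPM in Myc/NrasG12V and 61.3 ± 6.85 CPM in Myc/Akt1 (SD, n = 3 each, limma adjusted p = 0.00293). Sos1, the RAS exchange factor that Grb2 carries, had a log2 difference of -0.82 (limma adjusted p = 0.0165) and was not called with TMM factors (0.0646) or without Myc/NrasG12V replicate 1 or 2 (0.0604 and 0.0609) or Myc/Akt1 replicate 1 or 2 (0.0542 and 0.0584). Of 18 tested genes that restrain or turn over the receptors, 1 was called higher and 1 lower, with a median log2 difference of 0.13. That is 5.56% in each direction, below the 10% higher and 29.5% lower of all genes tested. Socs5, an adaptor reported to lower EGFR levels, was 4.36-fold higher in Myc/NrasG12V (limma adjusted p = 0.00163). Socs4 had a log2 difference of -0.73 (limma adjusted p = 0.0155), which was not called with TMM factors (0.0806) or without Myc/NrasG12V replicate 1 or 2 (0.0561 and 0.0579) or Myc/Akt1 replicate 1 or 2 (0.0693 and 0.0614), and Lrig2 one of -0.52 that was not called (limma adjusted p = 0.0838). Errfi1, the feedback inhibitor of EGFR also known as MIG6, was abundant and did not pass, at 1445 ± 73.7 CPM in Myc/NrasG12V and 1506 ± 56.2 CPM in Myc/Akt1 (SD, n = 3 each, log2 difference -0.06, limma adjusted p = 0.849); its difference was 0.26 with TMM factors, also not called, and it was picked for naming after its values were seen. With TMM factors the shedding, adaptor and restraint genes called higher numbered 5 of 11, 3 of 18 and 5 of 18, and those called lower 0, 2 and 0. On that scale 16.2% of all genes tested were called higher, and 2565 of 14365 lower.

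**Figure D5:**
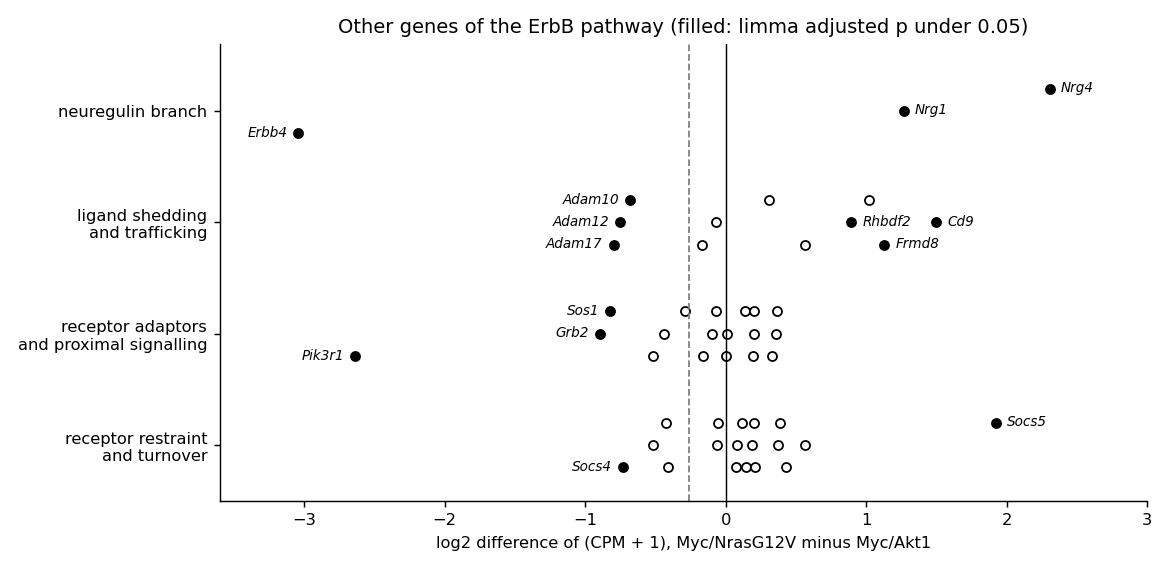
Log2 difference of (CPM + 1), Myc/NrasG12V minus Myc/Akt1 (horizontal axis), of the tested genes of 4 lists around the receptors (rows; the vertical offset within a row only separates points); filled points were called by limma and are named, open ones were not. Erbb4 at -3.04 and Pik3r1 at -2.64 lie farthest left and Nrg4 at 2.31 farthest right; the dashed line is the median of all genes tested, -0.26.

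Markers of other cell types that the tumours could hold also differed between groups. The counts of markers called stand beside 10% called higher in Myc/NrasG12V and 29.5% lower over all genes tested. Neutrophil markers summed to 28.2, 67.7 and 165 CPM in Myc/NrasG12V replicates 1, 2 and 3, against 3.55 to 4.58 CPM in Myc/Akt1, with 6 of 7 tested called higher. Macrophage markers summed to 414, 272 and 257 CPM in Myc/NrasG12V replicates 1, 2 and 3, against 158 to 212 CPM in Myc/Akt1, with 4 of 9 called higher. The rest of that list, Adgre1, Cd68, Csf1r, C1qa and C1qb, was not called. The neutrophil sum was thus highest in Myc/NrasG12V replicate 3, which also had the highest level in its group of 8 of the 9 tested members. The macrophage sum of that library was the lowest of its group. Hbegf was at 45.0, 44.6 and 114 CPM in Myc/NrasG12V replicates 1, 2 and 3, whose neutrophil sums were 28.2, 67.7 and 165 CPM. A link between these values was not tested. Erythroid markers summed to 273, 982 and 1695 CPM in Myc/NrasG12V replicates 1, 2 and 3, so their sum too was highest in replicate 3. In Myc/Akt1 they summed to 47.0 to 92.8 CPM, and 5 of 6 were called higher in Myc/NrasG12V. T and NK cell markers summed to 13.9 to 33.3 CPM in Myc/NrasG12V and 6.36 to 8.79 CPM in Myc/Akt1, with 4 of 8 called higher and 1 lower. Cholangiocyte markers summed to 536 to 1050 CPM in Myc/NrasG12V and 143 to 277 CPM in Myc/Akt1, with 2 of 7, Spp1 and Prom1, called higher. The sums of the endothelial list overlapped between groups, at 161 to 267 CPM in Myc/NrasG12V and 175 to 219 CPM in Myc/Akt1, although 4 of 8 markers, Stab2, Lyve1, Clec4g and Vwf, were called higher and Cdh5 lower. The stellate and fibroblast sums also overlapped, with 1 of 8 markers, Dcn, called higher. Of the basophil and mast cell list, Mcpt8, Cpa3, Ms4a2 and Fcer1a had at most 12 reads over a group, and each was at 0 reads in a group. Il1rl1 of that list had 12 reads over the Myc/NrasG12V group and 11 over the Myc/Akt1 group. Kit, the only marker of the list that was tested, averaged 4.88 CPM in Myc/NrasG12V and 7.16 CPM in Myc/Akt1 and was not called. At least a read was seen somewhere for every marker of the other lists. Their part in the levels of the ligand genes was not tested.

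The gene with the most similar profile over the 6 libraries was looked up for each tested member among 10038 or 10039 genes averaging 5 CPM or more, by the root mean square difference of centred log2(CPM + 1). For the 4 ligand and receptor genes whose calls held in every setting it was Ier3, an early response gene, for Hbegf (0.28), Runx2, a transcription factor gene, for Egfr (0.16), Setdb2 for Btc (0.20) and Agfg1 for Tgfa (0.08). These genes had log2 differences of 4.25, 2.56, 2.46 and 1.26, close to those of the members, as the measure makes them. For the other members it was Nlgn2 (Erbb3), Fes (Erbb2), Zc3h12d (Ereg), Slc51b (Areg) and R3hcc1 (Egf), at 0.06 to 0.29.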

How the data were processed

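Liver tumour RNA had been sequenced as stranded single-end poly(A) libraries, per the labels' protocols. Per the submitters' processing notes, GRCm38 was the build, and the tools were Subread 1.6.3, STAR 2.6.1c and edgeR 3.22.5. How multi-mapped reads and strand were treated, and which annotation was used, is not given in the sources used here. The deposited values are CPM, although the column is named reads, and dividing by what 1 read is worth gave whole reads for 100% of them (tolerance 0.01 read), so read counts were recovered. Of 39179 genes, 37693 (96.2%) matched GENCODE M21 identifiers (GRCm38), the source of coordinates and exon lengths.

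Myc/NrasG12V was compared with Myc/Akt1 using limma 3.58.1 (eBayes with trend, two-sided, Benjamini-Hochberg) on log2(CPM + 1) over 14365 genes passing filterByExpr (0.457 CPM in 3 libraries, 15 reads in total). The fold changes are ratios of mean CPM; log2 differences carry the pseudocount of 1 CPM and understate those of rare genes. Alternatives were other scalings, pseudocounts and filters, voom, edgeR 4.0.16 and DESeq2 1.42.0 on recovered reads, a replicate block and leaving out each library (R 4.3.3). edgeR called 4893 genes over the whole table, 2381 of them higher in Myc/NrasG12V. The fit was tested on simulated data.

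The members and gene lists were chosen with earlier results of these data known. Named genes were the 10 members, Nras, Akt1, Myc, the 3 tested genes of lowest adjusted p in each of 4 pathway lists, the gene nearest in profile to each tested member and the chromosome 5 stretch. An exact permutation test of 3 against 3 cannot go below p = 0.1 and was not used.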

Additional observations from a re-analysis of the deposited data

How the results depend on the processing

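The directions of all 9 tested members were kept in all 17 alternatives: of 153 member and setting pairs 141 gave the same call, 11 lost it and 1, Areg with DESeq2, gained it, and Egfr, Hbegf, Tgfa and Btc kept their calls throughout. With no filter on low values 5 members were called (Erbb2 and Ereg had limma adjusted p = 0.0884 and 0.0855), with DESeq2 8. Leaving out a library gave 5 to 6 members higher and 0 lower, 3856 to 6298 genes over the whole table, 5 to 7 pathway genes higher and 3 to 10 lower, and 5 to 7 chromosome 5 genes higher and 0 to 1 lower.

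Pathway genes called higher numbered 6 on CPM but 15 with TMM or median-of-ratios factors, 18 with upper-quartile factors, 14 with edgeR, 19 with DESeq2 and 15 with voom; those called lower numbered 8 on CPM and 3 in each of these settings. The chromosome 5 stretch had 0 genes lower in the same settings and with the replicate block. Except for the block, these settings differ from the CPM scale by factors that lower the size of the Myc/NrasG12V libraries relative to the Myc/Akt1 ones. Calls over all genes moved the same way. Those higher were 10% on CPM, 16.2% with TMM, 16.6% with edgeR and 19.2% with DESeq2. Those lower numbered 4240 on CPM, 2565 with TMM, 2512 with edgeR and 2791 with DESeq2. Rassf6, not called, stood at -0.27 on CPM and changed sign: 0.037 with TMM, 0.042 with median-of-ratios, 0.089 with upper-quartile factors, 0.043 with edgeR, 0.048 with DESeq2 and 0.038 with voom. Errfi1, not called, at -0.06 on CPM, was 0.26 with TMM, median-of-ratios, edgeR, DESeq2 and voom and 0.31 with upper-quartile factors. Myc, at 0.03, changed sign to -0.10 and -0.0031 without Myc/NrasG12V replicate 1 and 3, and to -0.04 and -0.18 without Myc/Akt1 replicate 1 and 3, within a range of -0.18 to 0.30 over the libraries left out. The cause of the change was not tested.

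Same-numbered samples did not deviate together (correlations of -0.08, 0.11 and 0.08), so the numbers were not taken to pair them; with the replicate block 5530 genes, 7 members and 7 and 8 pathway genes were called. Depth limits Epgn, Erbb2, Ereg, Areg and Egf, whose counts were low in both groups apart from Areg in Myc/NrasG12V replicate 3. It also limits Erbb4 in Myc/NrasG12V.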
